A study of Mus musculus with 6 samples.

Results

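The antiviral effectors described here are 10 interferon-stimulated genes around Isg15: Isg15, Usp18, Ifit1, Ifit2, Ifit3, Mx1, Mx2, Rsad2, Bst2 and Lgals3bp. They were chosen by name from the deposited table of unnormalized probe values, accepting older names, and 15 of its 25697 probes read them. Isg15 is listed there as G1p2 and Rsad2 as 2510004L01Rik. The samples were STHdh cells, an immortalized mouse line made from embryonic striatal precursors that carries a viral large T antigen. In 3 control samples the titles name the expression plasmid pcDNA while the genotype field says wild-type, and 3 samples were transfected with the forkhead transcription factor Foxp1. The sources used here give no dose, time after transfection or share of cells transfected. They do not say whether the samples of a group are separate cultures, so a p-value here covers sample-to-sample spread that could be technical alone. Both groups come from 1 cell line. The series title frames the question, whether Foxp1 represses immune signalling genes.

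Type I interferon binds its receptor, activates the JAK kinases and drives a transcription factor complex that holds Stat2 and Irf9 to a promoter element called the ISRE. The same effector genes can also be switched on by interferon regulatory factors without secreted interferon. Isg15 is a ubiquitin-like protein that is joined to other proteins and is also secreted, and Usp18 removes it and damps receptor signalling. Ifit1, Ifit2 and Ifit3 are tetratricopeptide-repeat proteins that act on viral RNA and its translation, Mx1 and Mx2 are dynamin-like GTPases that block viral replication, Rsad2 (viperin) makes a chain-terminating nucleotide, and Bst2 (tetherin) holds budding virions at the cell surface. Lgals3bp is a secreted glycoprotein that binds galectins and is raised by interferon and in inflammation.

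The promoters of the members differ in how they carry the ISRE, and those of the genes discussed below are shown for that reason. Promoter sequences from RefSeq (GRCm38.p6) were at hand for 7 of the 10 members, and the 250 bases before each start were searched on both strands. The ISRE was searched as GAAANNGAAA and, with a wider spacing chosen after the sequences had been read, as GAAANNNGAAA. Capitals mark these matches, which may overlap.
Isg15, chr4:156200819-156201068, minus strand, the 250 bases before the start: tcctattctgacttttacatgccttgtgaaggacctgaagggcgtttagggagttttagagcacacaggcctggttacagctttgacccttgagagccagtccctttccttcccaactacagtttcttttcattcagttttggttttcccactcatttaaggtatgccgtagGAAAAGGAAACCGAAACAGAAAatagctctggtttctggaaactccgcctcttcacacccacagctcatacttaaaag
Ifit1, chr19:34640779-34640818, plus strand: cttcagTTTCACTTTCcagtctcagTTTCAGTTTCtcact
Ifit3, chr19:34583368-34583428, plus strand: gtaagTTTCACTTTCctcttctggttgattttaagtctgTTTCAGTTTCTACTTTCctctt
Rsad2, chr12:26456543-26456582, minus strand: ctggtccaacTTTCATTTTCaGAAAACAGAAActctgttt
Bst2, chr8:71537576-71537615, minus strand: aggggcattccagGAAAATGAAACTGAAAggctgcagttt
Lgals3bp, chr11:118401960-118402209, minus strand, the 250 bases before the start: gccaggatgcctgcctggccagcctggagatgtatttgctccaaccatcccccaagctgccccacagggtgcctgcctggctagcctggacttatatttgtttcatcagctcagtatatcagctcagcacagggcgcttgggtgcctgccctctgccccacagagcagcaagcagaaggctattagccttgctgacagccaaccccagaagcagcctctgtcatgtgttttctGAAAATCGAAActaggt

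Isg15 held 3 overlapping matches to GAAANNGAAA between -78 and -57 of its start. Ifit1, Ifit3 and Bst2 held 2 each and Rsad2 held 1. Lgals3bp held the wider spacing alone, from -17 to -7, and neither of the annotated Ifit2 starts held a match of either kind in its window. Of all 32851 promoters in the table, 2.98% held GAAANNGAAA, 0.18% held more than 1 match and 2.38% held GAAANNNGAAA. The GAS element, another interferon-responsive motif, searched as TTCNNNGAA, matched in Bst2 (where it overlaps the ISRE match) and in 1 of the 2 Ifit2 windows, against 7.02% of all promoters. The forkhead motif TGTTTAC matched in Rsad2 alone, against 3.17% of all promoters. A match describes letters and not binding, and the absence of one says only that these letters are not in this window.

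**Figure D1:**
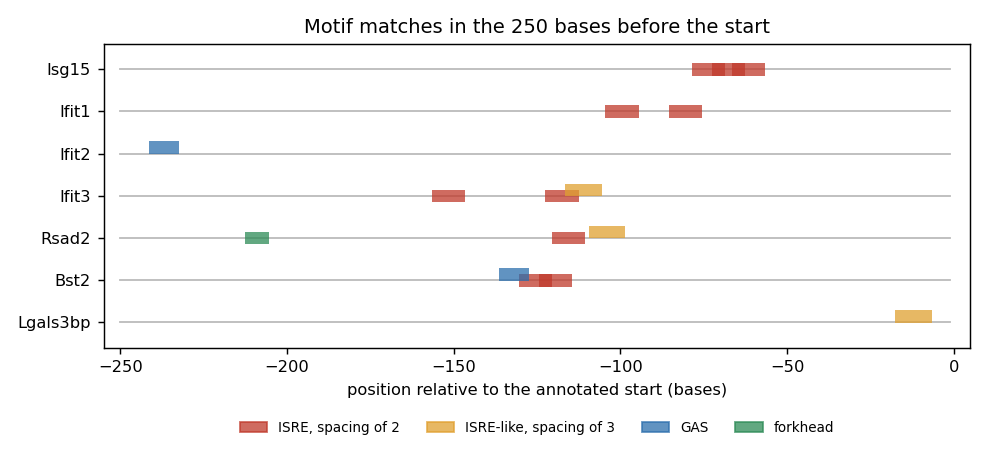
Positions of motif matches in the 250 bases before the annotated start of the 7 members with a promoter sequence (x axis, bases from the start; coloured blocks, matches on either strand). Isg15 carries 3 overlapping ISRE matches between -78 and -57, and Lgals3bp a match of the wider spacing next to its start.

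Each array detected between 11789 and 12342 probes at a detection p under 0.05, and the lowest intensity called detected lay between 37.9 and 91.1. The arrays numbered 3 were the brightest of each group before normalization (median intensity 77.0 and 64.5, against 29.2 to 38.3 on the others). The Foxp1 probe read intensities of 688, 621 and 1048 on control arrays and of 4967, 4979 and 5250 on transfected ones, a log2 difference of 2.62 ± 0.17 (SE), so the transfected gene was higher in each sample so labelled. Of the labelled striatal origin, 7 of 10 neuron markers on the array were detected on 0 arrays, Gad1, Drd1 and Bcl11b among them. The 3 kept, Drd2, Pde10a and Ppp1r1b, did not pass, the last being detected on 3 control arrays and 0 transfected ones (-0.45 ± 0.13, adjusted p = 0.124). Ppp1r1b was thus kept only through its control arrays, so it had to be high there to be tested. Of 6 progenitor markers, Nes, Vim and Sox2 were kept, and Pax6, Prom1 and Fabp7 were detected on 0 arrays. Of 14 microglia and macrophage markers, Cd68 and Cd14 were kept, neither passing the test, and 11 were detected on 0 arrays. The summed intensity of that marker list ran from 328 to 735 in controls and from 298 to 591 in transfected samples. Of 6 astrocyte markers, Aldh1l1 and Slc1a3 were kept and Gfap and Aqp4 were detected on 0 arrays, with a summed intensity of 231 to 833 in controls and 238 to 495 in transfected samples. The groups of Slc1a3, a glutamate transporter, did not overlap, as was so for 25.8% of all tested genes. Slc1a3 differed by -0.61 ± 0.18 (adjusted p = 0.137, and 0.0455 with the replicate block). The part of these markers in the results below was not tested.

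Of the 10 members, 5 had a probe detected on at least 3 of the 6 arrays and could be tested: Isg15, Ifit2, Ifit3, Bst2 and Lgals3bp. Their 6 kept probes, of the 12136 kept in all (47.2% of the array), were detected on each of the 6 arrays. With limma and Benjamini-Hochberg adjustment over all kept probes, 1 member rose (Isg15), 1 fell (Lgals3bp) and 3 did not pass. Over all 8789 genes 1.58% were called higher, 1.15% lower and 2.73% in either direction, so little can be read from 1 call in each direction among 5 genes. The median log2 difference of the 5 was -0.10, with 1 positive and 4 negative, against -0.0019 over all genes. The other 5 members (Usp18, Ifit1, Mx1, Mx2 and Rsad2) were detected on 0 arrays.

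Isg15 rose. Its probe, ILMN_1256257, read intensities of 69.8, 68.5 and 129 on control arrays 1 to 3 and of 181, 179 and 276 on Foxp1 arrays 1 to 3. Each transfected array was above the 3 controls. On the normalized log2 scale its levels were 6.89, 6.82 and 6.56 in controls and 7.85, 7.85 and 7.80 after transfection. Its log2 difference came to 1.08 ± 0.11 (SE, n = 3 per group), or 2.11-fold (limma adjusted p = 0.00334, 95% interval 0.82 to 1.33), the rise of rank 40 among the 8789 genes. Between same-numbered arrays the intensity ratio before normalization was 2.59, 2.61 and 2.15. The normalized log2 differences of these pairs were 0.96, 1.03 and 1.24. In these bulk samples more expressing cells and more RNA per cell cannot be told apart.

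Control cells expressed Isg15 near the limit of detection. Control intensities were 1.84, 1.48 and 1.41 times the lowest detected intensity of their own array, with detection p-values of 0.0100, 0.0163 and 0.0213. On the transfected arrays the same ratio was 3.79, 3.66 and 3.06, and each detection p was 0. Since the offset used in the background correction pulls dim probes together, the size of the fold depends on it: the difference was 0.88 with an offset of 50 and 1.20 with no further background correction. The call was kept in each of the 15 alternatives run on this probe, including the 6 fits that left out 1 array, with differences from 0.98 to 1.14 and a highest adjusted p of 0.0407 among those 6.

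**Figure D2:**
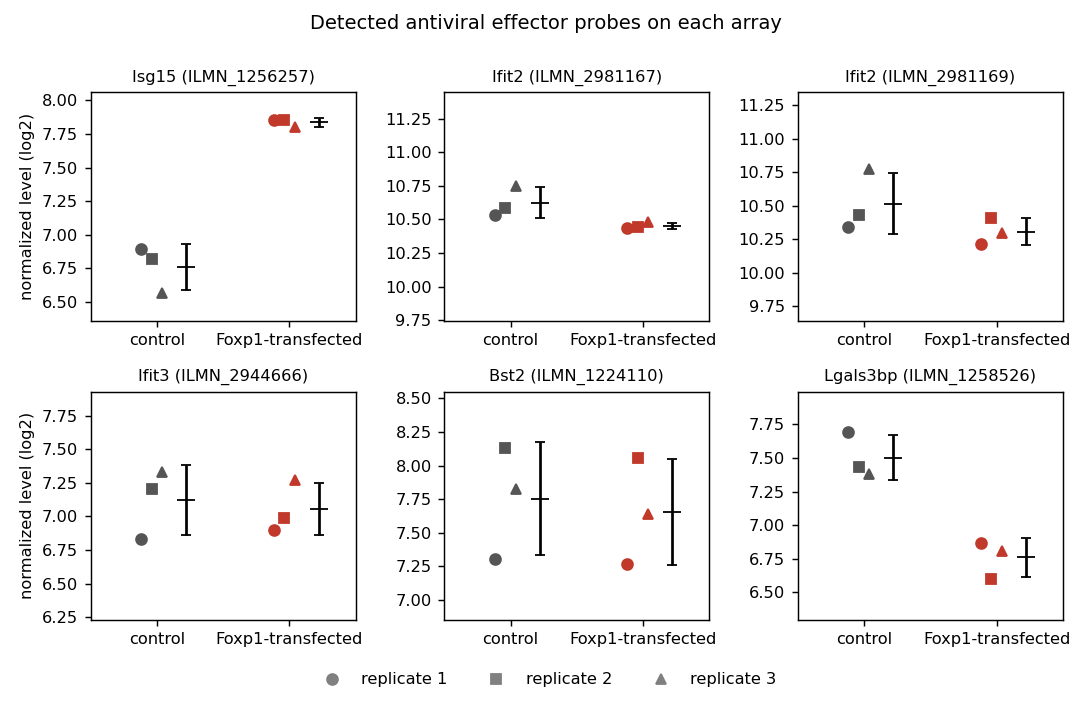
Normalized log2 level of each kept member probe on each array (y axis; each panel spans the same range of log2 units), with symbols for the replicate number and a bar for the mean and SD of 3 arrays. The Isg15 samples separate upwards and the Lgals3bp samples downwards, while the groups of Ifit3 and Bst2 lie over each other.

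The enzyme that removes Isg15 was not seen. The 3 Usp18 probes had detection p-values between 0.206 and 0.805 and were called on 0 of 6 arrays in either group. Of the machinery that conjugates Isg15, the activating enzyme Uba7 was detected on 0 arrays, the conjugating enzyme Ube2l6 on 2 and the ligase Trim25 on 1, so that 0 of the 3 listed genes on the array could be tested. Herc6, the main ligase for Isg15 in the mouse, was not analysed here.

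Ifit2 did not pass the test, with either of its probes. ILMN_2981167 read 1065, 1127 and 2589 in controls and 1210, 1144 and 1855 in transfected samples, and ILMN_2981169 read 932, 1004 and 2627 against 1027, 1123 and 1628. Before normalization the Foxp1 array was the brighter of its pair at numbers 1 and 2 and the dimmer at number 3, for both probes. After normalization the levels of ILMN_2981167 were 10.53, 10.59 and 10.75 in controls and 10.44, 10.44 and 10.48 in transfected samples, a difference of -0.17 ± 0.10 (SE; adjusted p = 0.398, 95% interval -0.39 to 0.05). Its groups did not overlap, as was so for Isg15, Lgals3bp and 25.8% of all genes. The second probe differed by -0.21 ± 0.13 (SE; adjusted p = 0.449, 95% interval -0.51 to 0.10) and its groups overlapped. Both intervals leave out a rise of the size seen for Isg15.

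Ifit3, the partner that stabilizes Ifit1 in human cells, was read by 3 probes, of which 1 was kept. ILMN_2944666 had intensities of 66.4, 94.7 and 231 in controls and of 86.3, 93.0 and 188 in transfected samples. Its levels, 6.83, 7.21 and 7.33 against 6.90, 6.99 and 7.27, overlapped and differed by -0.07 ± 0.16 (SE; adjusted p = 0.857, 95% interval -0.43 to 0.29). ILMN_1230458 was detected on control array 3 alone and ILMN_1246194 on 0 arrays. Ifit3b is a near copy of Ifit3 in the same gene cluster, its promoter being 99.6% identical over 260 aligned bases, and it was not analysed under its own name, so which of these genes ILMN_2944666 reads is uncertain. Ifit1, whose promoter holds 2 ISRE matches in a stretch of 40 bases, gave detection p-values from 0.391 to 0.678 and was detected in neither group.

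**Figure D3:**
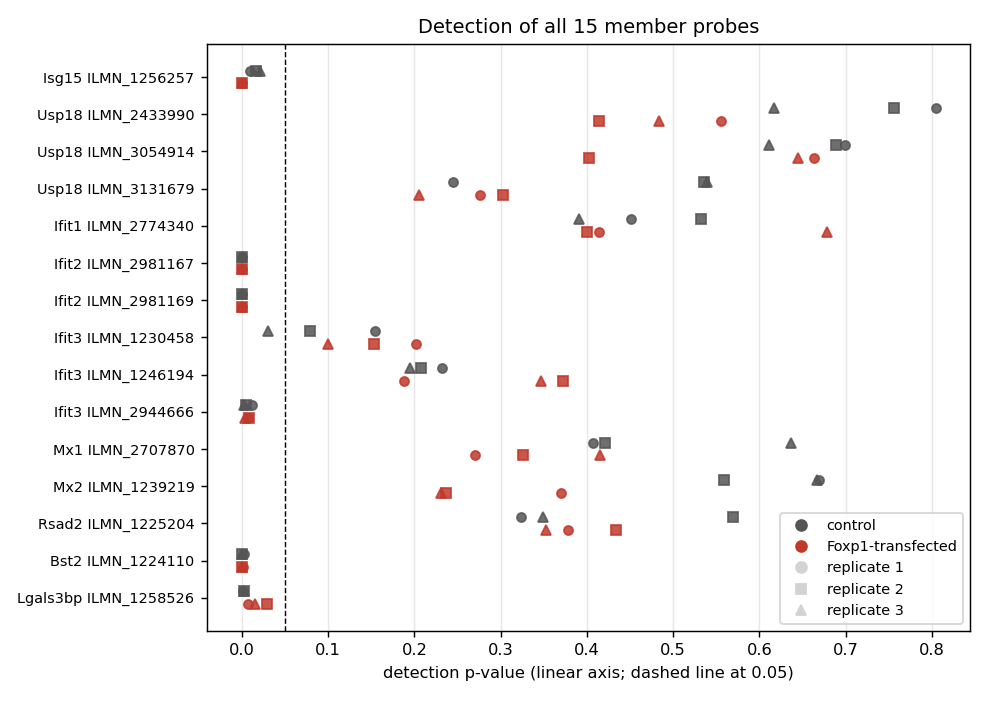
Detection p-value of each of the 15 member probes on each array (x axis, linear, dashed line at 0.05; rows are probes, colours are groups, symbols replicate numbers). Isg15, both Ifit2 probes, 1 Ifit3 probe, Bst2 and Lgals3bp lie left of the line on all 6 arrays, and the Usp18, Ifit1, Mx1, Mx2 and Rsad2 probes lie right of it on all 6.

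The GTPases Mx1 and Mx2 were each detected on 0 arrays. The RefSeq table lists both as transcribed pseudogenes in the C57BL/6J reference, while the sources used here name no mouse strain for the cell line. Mx2 read -10.3, -9.49 and -28.0 in controls and 0.195, 10.1 and 23.0 in transfected samples, below the lowest detected intensity on each array. Its normalized levels were 5.11, 5.16 and 5.10 against 5.32, 5.49 and 5.55, so its groups did not overlap, and no fold is given since both groups lie below the detection limit. The groups of Mx1 and of the Usp18 probe ILMN_2433990 were also set apart upwards, as were those of 5.08% of the 12272 probes detected on 0 arrays. Tested without the detection filter, Mx2 had an adjusted p of 0.149, Mx1 of 0.539 and that Usp18 probe of 0.491. The groups overlapped for the other member probes detected on 0 arrays: Usp18 ILMN_3054914 and ILMN_3131679, Ifit1, Ifit3 ILMN_1246194 and Rsad2. Rsad2 read between -9.86 and 3.84 and was detected in neither group. Among the 54 readings of the 9 member probes that were not kept, 31 were below 0 and 1 was detected.

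Bst2 varied between replicate numbers and not detectably between groups. Its probe, ILMN_1224110, read 99.7, 193 and 333 in controls and 116, 207 and 246 in transfected samples. The levels were 7.30, 8.13 and 7.83 in controls and 7.27, 8.06 and 7.64 in transfected cells, so same-numbered arrays lay close together while the numbers differed within each group. Controls averaged 7.75 ± 0.42 (SD, n = 3) and transfected cells 7.65 ± 0.39 (SD, n = 3). The difference was -0.10 ± 0.25 (SE; adjusted p = 0.873, 95% interval -0.68 to 0.48). With the replicate number as a block the adjusted p was 0.539.

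Lgals3bp fell. Its probe, ILMN_1258526, read intensities of 134, 113 and 240 on control arrays 1 to 3 and of 84.6, 67.8 and 132 on Foxp1 arrays 1 to 3. The normalized levels were 7.69, 7.44 and 7.38 in controls and 6.87, 6.60 and 6.81 in transfected cells, and the groups did not overlap. Its log2 difference came to -0.74 ± 0.12 (SE, n = 3 per group), 1.67-fold lower (limma adjusted p = 0.0242, 95% interval -1.03 to -0.46), the fall of rank 35 among the 8789 genes. Intensities of same-numbered pairs had ratios of 0.630, 0.599 and 0.550 before normalization. The normalized log2 differences of these pairs were -0.82, -0.84 and -0.57. The transfected samples lay near the limit of detection, at 1.39 to 1.77 times the lowest detected intensity, against 2.44 to 3.55 times in controls. The call was lost without control replicate 1 (adjusted p = 0.0728) or 2 (0.0901), without Foxp1 replicate 1 (0.0877), 2 (0.127) or 3 (0.0710) and with no detection filter (0.0520). It was kept without control replicate 3 (0.0275) and in the other 8 alternatives, with differences from -0.84 to -0.60 over the 15.

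**Figure D4:**
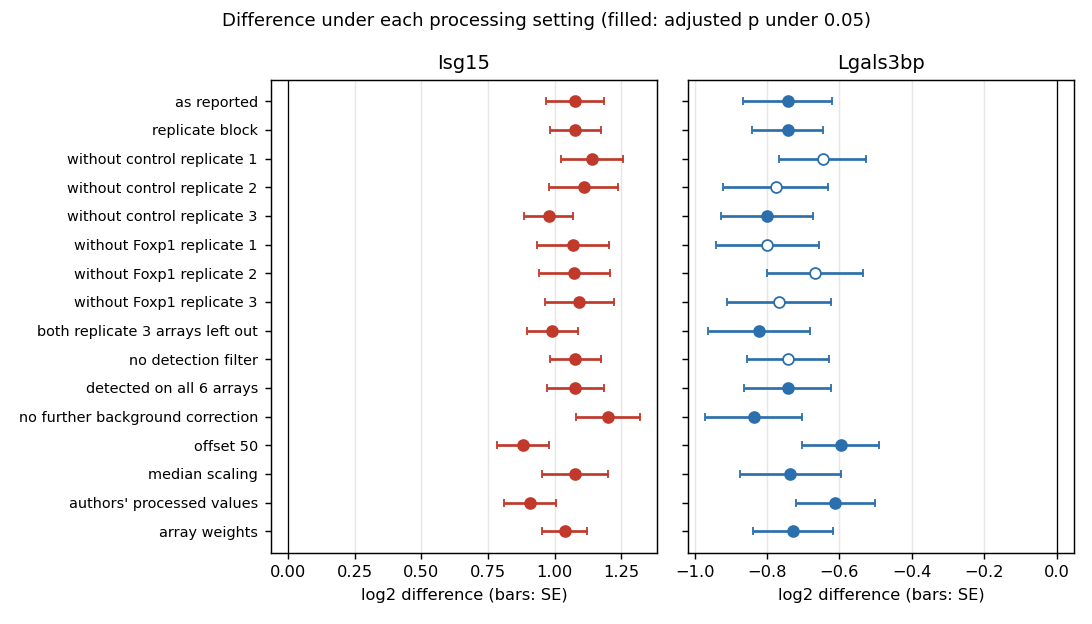
Log2 difference of Isg15 and Lgals3bp under each processing setting (x axis, bars are SE; rows are settings; filled points passed an adjusted p of 0.05). Isg15 stays between 0.88 and 1.20 and passes throughout, while Lgals3bp stays between -0.84 and -0.60 and passes in 9 of 15 alternatives.

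Galectins, the proteins that Lgals3bp binds, gave 5 genes to test, of which 0 rose, 0 fell and 5 did not pass (median difference -0.11). Lgals3, for which Lgals3bp is named, differed by 0.00 ± 0.10 (SE; adjusted p = 0.999). Lgals4, an intestinal galectin, read 60.3, 69.6 and 197 against 49.0, 54.6 and 116 and differed by -0.46 ± 0.14 (SE; adjusted p = 0.145, and 0.0455 with the replicate block). Lgals8 differed by -0.20 ± 0.15 (adjusted p = 0.539).

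Upstream of the members, interferon genes were mostly undetected. Of 10 interferon genes on the array 8 were detected on 0 arrays, Ifnb1 among them, and the kept one, Ifnz, differed by -0.17 ± 0.14 (SE; adjusted p = 0.553). The receptor chain Ifnar1 was detected on 0 arrays, while its partner Ifnar2 was kept (0.14 ± 0.12, adjusted p = 0.608). Among 18 kept genes of interferon receptors and signalling, 1 rose, 0 fell and 17 did not pass, with 4 positive and 14 negative differences and a median of -0.10. The one that rose was Irf9, the DNA-binding part of the complex that binds the ISRE, with intensities of 281, 242 and 500 in controls and of 425, 399 and 707 in transfected samples (0.53 ± 0.11, adjusted p = 0.0449). That call was lost in 11 of 15 alternatives, among them the replicate block (0.0503) and each of the 6 fits without 1 array (highest 0.160). Its partner Stat2 (-0.04 ± 0.13, adjusted p = 0.900) did not pass, and Irf7, an interferon-induced regulator, was detected on 0 arrays. Among the negative differences that did not pass were Tyk2 (-0.35 ± 0.10, adjusted p = 0.129) and Ptpn6 (-0.33 ± 0.10, adjusted p = 0.137). The groups of both did not overlap, as was so for 25.8% of all genes. Ptpn6 was detected on 3 control arrays and 0 transfected ones. It was thus kept only through its control arrays, so it had to be high there to be tested, and its transfected levels lie below detection.

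Of 6 kept sensors of viral RNA and DNA, 0 passed in either direction (median 0.05). The smallest unadjusted p belonged to Ddx58, the RNA helicase RIG-I, which read 65.6, 74.4 and 141 in controls and 110, 109 and 228 in transfected samples (0.51 ± 0.12, adjusted p = 0.0820). Its groups did not overlap after normalization, as was so for 25.8% of all genes. The RNA-editing enzyme Adar followed (0.31 ± 0.15, adjusted p = 0.330).

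Among 62 other interferon-stimulated effectors on the array, 35 were detected on 0 arrays and 23 were kept, of which 2 rose, 0 fell and 21 did not pass (median 0.04). Oasl1, an oligoadenylate synthetase-like protein, read 12.3, 6.71 and 15.3 in controls, where it was detected on 0 arrays, and 163, 190 and 313 in transfected samples. It was at least 3.04-fold higher (adjusted p = 0.000293), its transfected mean being set against the lowest detected level of each control array. Oasl1 was kept only through its 3 transfected arrays, so it had to be high there to be counted, and its adjusted p with no detection filter was 0.00277. Ccl5, a chemokine for T cells and monocytes, read 267, 404 and 1132 against 1576, 1717 and 2852 and differed by 1.88 ± 0.23 (adjusted p = 0.00742). Its call was lost without Foxp1 replicate 2 (0.0642). Gbp4, a guanylate-binding protein, differed by 0.68 ± 0.19 (adjusted p = 0.114, and 0.0400 with the replicate block). It was detected on 1 control and 3 transfected arrays, so it too was kept only through the transfected ones. With no detection filter the adjusted p of Gbp4 was 0.212. Oas1a, Oas2, Oas3 and Oasl2 were detected on 0 arrays. All 6 lists together held 53 kept genes. Of these 3 rose (Irf9, Oasl1 and Ccl5), 0 fell and 50 did not pass, against 1.58% of all genes called higher. Little can be read from this count. Oasl1 entered it only through its transfected arrays, and the Irf9 call was lost in 11 of 15 alternatives. The lists were also chosen with earlier results of these data known. The 53 genes had 22 positive and 31 negative differences, with a median of -0.05. Where a gene of these lists had more than 1 kept probe, each gave the same call, while the sign differed between the probes of B2m and Tor3a, which did not pass. The second kept Oasl1 probe, ILMN_2717366, was likewise detected on 0 control and 3 transfected arrays and was at least 1.86-fold higher (adjusted p = 0.00113). This probe, too, was kept only through its transfected arrays, so it had to be high there to be tested. A further 1 Oasl1 probe was detected on 0 arrays.

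**Figure D5:**
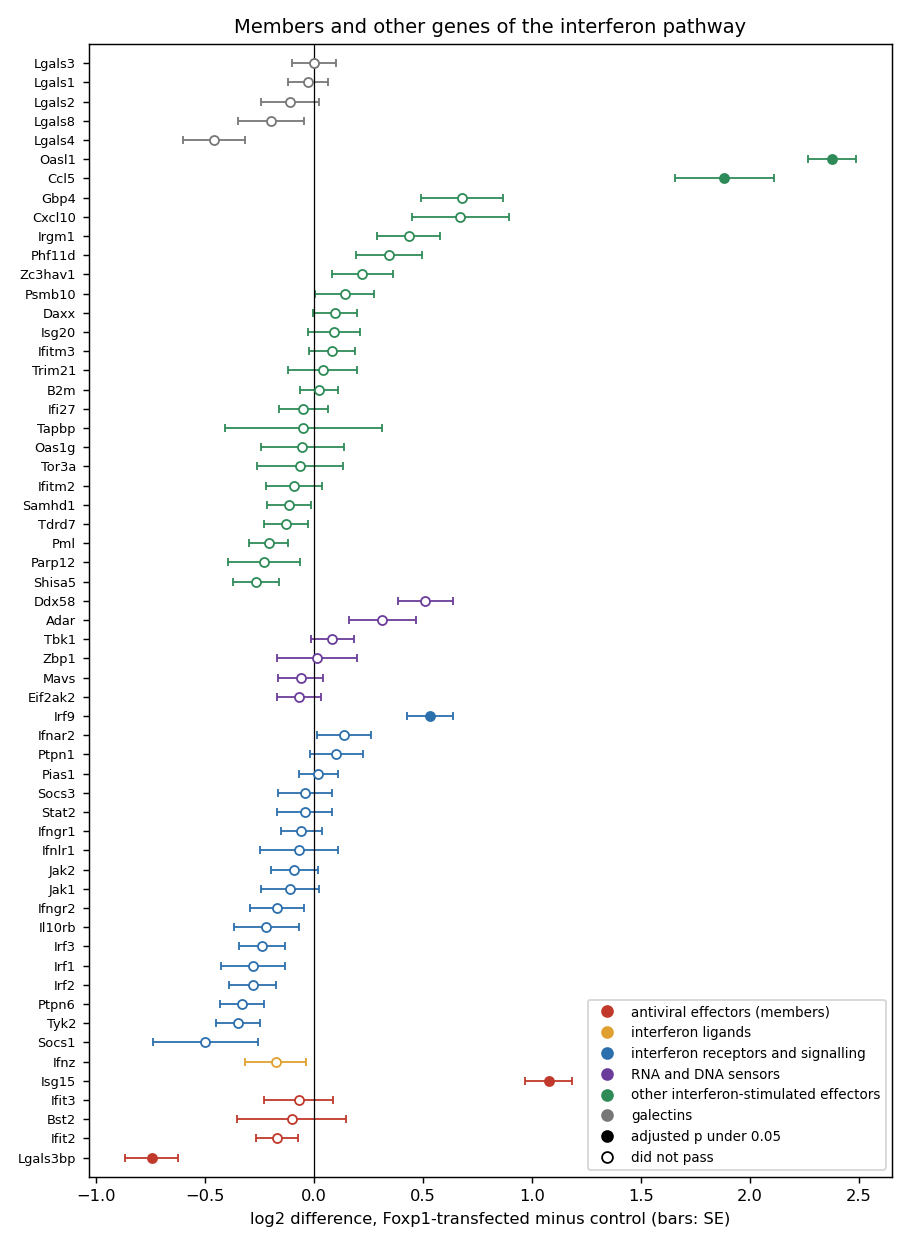
Log2 difference between Foxp1-transfected and control cells (x axis, bars are SE) for the 5 tested members and the 53 other tested genes of the interferon pathway and galectins, coloured by list, with 1 gene per row and filled points for an adjusted p under 0.05. Oasl1, detected on 0 control arrays, is drawn at its fitted value. Isg15, Oasl1, Ccl5 and Irf9 lie to the right and Lgals3bp to the left, while the open points, which did not pass, spread on both sides of 0.

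By correlation of normalized log2 levels over the 6 arrays, the 5 called genes most like Isg15 were Atf3 (r = 0.997), a stress-induced transcription factor, Zswim4 (0.996), Ddit3 (0.995), a stress-induced transcription factor that favours cell death, Slc6a19 (0.994), an amino acid transporter, and Foxp1 itself (0.992). They were taken from 238 called genes that are no member, so a correlation near 1 mostly restates the difference between the groups, and these arrays share their normalization. None of the 5 belongs to the interferon lists used here. Among them Atf3 differed by 2.47 ± 0.14 (adjusted p = 0.000298) and Ddit3 by 1.01 ± 0.12 (adjusted p = 0.00594).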

How the data were processed

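Each of the 6 arrays gave a linear probe intensity and a detection p-value, per the file headers. About 30% of the deposited intensities were below 0, so the authors had subtracted a background. GenomeStudio is named in the submitters' processing notes. The authors' second deposited table was read as log2, since each column follows the log2 intensities of its own array (r of 0.922 to 0.975); its offset and method are unknown, and it served as an alternative. From the intensities, limma's neqc (R 4.3.3, limma 3.58.1, offset 16, background inferred from the detection p-values) gave quantile-normalized log2 levels. A probe was kept if its detection p was below 0.05 on 3 or more arrays. Groups, taken from the sample titles, were compared with lmFit and eBayes (2-sided, Benjamini-Hochberg over the kept probes, threshold 0.05). The fit was also run on simulated normalized levels with independent noise. Those levels held no detection limit and no likeness between same-numbered arrays, so that run does not test how the fit handles either. Genes were counted by their kept probe of highest mean. Differences are Foxp1-transfected minus control. The number of arrays limits the precision.

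Symbols were updated through RefSeq's gene table (GRCm38.p6): of the probes, 17551 had current names, 7033 were renamed from a synonym, 1086 kept the array's name and 27, garbled to dates or numbers, were left unnamed. Named genes are the members, Foxp1, each list gene past the threshold (where there was none, the 2 of smallest unadjusted p) and the 5 called genes most like Isg15; others were chosen after their values were seen. Members and lists were chosen with earlier results of these data known. A gene of the signalling list is not reported here. Same-numbered arrays were taken as pairs for the ratios and the replicate block, though the labels do not state a pairing. Their deviations from the group means correlated at 0.257, 0.115 and 0.401, and those of arrays of different numbers at -0.319 to 0.151. The value for number 2 lies below those of control 1 with Foxp1 2 (0.151) and control 2 with Foxp1 1 (0.121). The data therefore do not settle the pairing.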

Additional observations from a re-analysis of the deposited data

How the results depend on the processing

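Of the 15 alternatives run on the member probes, Isg15 passed in 15 and Lgals3bp in 9, and the Ifit2, Ifit3 and Bst2 probes did not pass in any. With the replicate block the members' counts were 1 higher and 1 lower, as reported. Of the other pathway genes 3 then rose (Oasl1, Ccl5 and Gbp4, with Irf9 not passing) and 1 fell (Lgals4). Over all 8789 genes that setting called 184 higher and 149 lower. The count of falling members was 0 with no detection filter. Of the other pathway genes 1 rose with both replicate 3 arrays left out, and 2 fell with array weights, a setting under which 753 genes in all passed, against 240 as reported. In the fits without 1 array, all genes past the threshold ran from 28 to 265, rising members stayed at 1, falling members ran from 0 to 1 and other pathway genes that rose from 0 to 2. These fits also rest on fewer samples, and Oasl1 was not tested in the 3 without a Foxp1 array, without both replicate 3 arrays or with detection required on all 6 arrays, since it was then not kept; it passed in each of the 3 without a control array. Differences without a call changed sign in some of them: Bst2 ran from -0.32 to 0.093 (0.090 without control replicate 2, 0.093 without Foxp1 replicate 1) and Ifit3 from -0.21 to 0.033 (0.033 without control replicate 3, 0.0097 without Foxp1 replicate 1). Levels near the detection limit bound what can be seen for Isg15 in controls, for Lgals3bp in transfected cells and for the 5 members detected on 0 arrays.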
